A study of Rattus norvegicus with 72 samples.

Results

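Of the 32545 genes counted in this study of rat kidneys after uninephrectomy, 10 encode the membrane proteins that carry filtered amino acids across the proximal tubule. They were chosen by symbol, and each symbol matched 1 gene identifier. In adult male Sprague-Dawley rats the right kidney was removed (nephrectomy) or, for sham surgery, its pedicle was dissected and the incision closed. All animals ate normal chow, no other agent or allele was named, and RNA was sequenced 24, 48 or 72 h later from the whole left kidney or from microdissected S1 tubules (the first stretch of the proximal tubule) and glomeruli. Each of the 18 groups of tissue, surgery and time held 4 libraries, 72 in all. The labels do not say whether libraries of a group came from separate animals, so the tests rest on the variation among libraries, part of which may be technical.

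The proximal tubule takes filtered amino acids up through transporters of the brush border and releases them to the blood through exchangers of the basolateral membrane. Slc6a19, Slc6a20 and Slc6a18 are sodium-coupled apical carriers of neutral amino acids and proline. Slc7a9 takes up cystine and dibasic amino acids and needs the heavy chain Slc3a1 to reach the membrane; loss of either protein causes cystinuria in humans. Slc1a1 takes up glutamate and aspartate, and Slc7a13 is an acidic amino acid and cystine carrier that pairs with Slc3a1 in the late proximal tubule of rodents. On the basolateral side, Slc7a7 and Slc7a8 exchange dibasic and neutral amino acids as partners of the heavy chain Slc3a2.

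Slc6a19 and Slc6a18, which stood in opposite order in S1 tubules and whole kidney, are direct neighbours on chromosome 1. The upstream sequences of these neighbours are shown with those of Slc7a9 and Slc3a1, the subunits of the cystine carrier, whose ratio also differed between the tissues. RefSeq (build GRCr8) gave a promoter window, 250 bases before to 50 after the start, for 8 of the 10 genes, and 2 windows for Slc3a2. The 250 bases before the start, read 5′ to 3′ on the gene's strand, were chr1:31414494-31414743 (+) for Slc6a19, chr1:31436403-31436652 (+) for Slc6a18, chr1:97246632-97246881 (+) for Slc7a9 and chr6:15394750-15394999 (-) for Slc3a1. Capitals mark matches on either strand to 3 motifs. The half-site of HNF1 was searched as GTTAAT, the site of HNF4 as CAAAGTCCA and the TATA box as TATAAA.
Slc6a19: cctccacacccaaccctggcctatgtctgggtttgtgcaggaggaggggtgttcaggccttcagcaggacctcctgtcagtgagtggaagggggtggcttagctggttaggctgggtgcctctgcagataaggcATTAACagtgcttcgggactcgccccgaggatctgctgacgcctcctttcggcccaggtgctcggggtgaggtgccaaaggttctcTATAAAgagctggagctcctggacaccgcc
Slc6a18: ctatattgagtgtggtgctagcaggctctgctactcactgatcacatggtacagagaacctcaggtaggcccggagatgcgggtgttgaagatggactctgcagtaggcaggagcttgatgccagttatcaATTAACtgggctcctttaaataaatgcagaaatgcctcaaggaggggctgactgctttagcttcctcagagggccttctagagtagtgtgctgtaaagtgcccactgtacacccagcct
Slc7a9: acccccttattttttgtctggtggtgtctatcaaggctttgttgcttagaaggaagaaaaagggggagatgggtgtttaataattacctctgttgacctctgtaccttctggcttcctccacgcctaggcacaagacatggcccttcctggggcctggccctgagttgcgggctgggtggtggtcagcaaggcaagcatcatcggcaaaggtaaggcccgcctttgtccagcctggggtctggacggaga
Slc3a1: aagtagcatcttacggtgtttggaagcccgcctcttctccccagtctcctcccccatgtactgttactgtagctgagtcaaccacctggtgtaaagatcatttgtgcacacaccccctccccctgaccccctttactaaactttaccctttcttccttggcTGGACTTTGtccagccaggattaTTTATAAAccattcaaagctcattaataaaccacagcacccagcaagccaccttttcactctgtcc

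The HNF1 half-site began 116 bases before the start of Slc6a19 and 119 before that of Slc6a18, on the minus strand in both. It occurred in these 2 of the 9 windows of the transporter genes and in 7.45% of 33469 promoter windows. The HNF4 letters occurred in the window of Slc3a1 and in 0.391% of all windows. A TATA box occurred in the windows of Slc6a19, Slc3a1 and Slc3a2 and in 14.2% of all; the window of Slc3a1 held it on both strands, in 2 overlapping matches. A match describes the letters and is not a binding site.

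Libraries held 6402916 to 87368807 gene counts in S1 tubules, 2643258 to 61976179 gene counts in glomeruli and 10102869 to 55517383 in whole kidney. The libraries labelled sham 24 h glomeruli and sham 24 h S1, both numbered 2, went against their labels. In that library labelled glomeruli 9 of the 10 transporters were above all 23 other glomerulus libraries. In that labelled S1 8 of 10 were below all 23 other S1 libraries. The share of all genes beyond the other libraries is not given here, so these counts are no result about the transporters in particular. Both libraries were left out by the rule that also listed the 10 genes, which leaves 23 libraries in each segment. Leaving them out widens the differences between the segments, so values with them included are given below as well. The S1 nephrectomy 72 h library numbered 2 also stood apart, with 8.05% of its uniquely mapped reads in genes and a mean proximal tubule marker level of 7.89 log2 CPM, against 9.32 to 10.14 in sham S1 libraries. In whole kidney, the 24 h libraries numbered 3 and 4 of both surgeries stood apart, as described with the results they touch. Dissection was checked on marker genes: in sham libraries 10 of 10 proximal tubule markers were higher and 6 of 6 podocyte markers lower in S1 tubules than in glomeruli, with median log2 fold changes of 7.7 and -7.63.

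All 10 transporters were higher in sham S1 tubules than in sham glomeruli with TMM scaling, and 9 of the 10, all but Slc7a13, with library totals. The 2 scalings differ here by a wide shift: the median log2 fold change of all genes was -0.62 with TMM and -2.3 with library totals, and the values below are TMM values unless said otherwise. Slc6a19, the main apical carrier of neutral amino acids, ranged from 53.1 to 184 RPKM (reads per kilobase, scaled to library depth; median 78.5) over 11 sham S1 libraries, against 0.144 to 2.57 RPKM (median 1.4) over 11 sham glomerulus libraries. Its groups did not overlap, and the level was 237-fold higher in S1 tubules (95% confidence interval 145 to 386; edgeR quasi-likelihood test, adjusted p = 4.17e-18), and 71.8-fold higher with library totals. Slc7a9 had 37.3 to 87.8 RPKM (median 65.8) in sham S1 tubules, against 0.264 to 2.36 RPKM (median 1.6) in sham glomeruli, a log2 fold change of 7.32 ± 0.28 (SE). Its heavy chain Slc3a1 had 145 to 297 RPKM (median 211) in sham S1 tubules, against 3.6 to 8.36 RPKM (median 7.12) in sham glomeruli, and a log2 fold change of 6.78 ± 0.26. The groups of both genes were far apart.

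On the basolateral side, Slc7a7 had 99.5 to 340 RPKM (median 225) in sham S1 tubules, against 2.98 to 15.8 RPKM (median 6.85) in sham glomeruli, and a log2 fold change of 6.51 ± 0.3. For Slc7a8 the log2 fold change was 5.59 ± 0.26. Their shared heavy chain Slc3a2 had the second smallest difference, 3.38 ± 0.19 (10.4-fold, interval 7.94 to 13.7; 3.33-fold with library totals): it had 50.5 to 240 RPKM (median 119) in sham S1 tubules, against 29.5 to 51.8 RPKM (median 37.4) in sham glomeruli. Slc3a2 was the highest of the 10 transporters in all 23 glomerulus libraries used. The remaining apical carriers Slc6a18 (6.08 ± 0.3), Slc1a1 (6.03 ± 0.32) and Slc6a20 (5.85 ± 0.22) had log2 fold changes close to each other.

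Slc7a13 was the exception in size. It had 0.242 to 6.06 RPKM (median 0.889) over 11 sham S1 libraries, against 0.0391 to 3.03 RPKM (median 1.25) over 11 sham glomerulus libraries. These ranges overlapped and the S1 median was the lower one, while the fitted log2 fold change was 1.88 ± 0.47 (edgeR, adjusted p = 0.00133). With library totals the log2 fold change was 0.12 ± 0.54 (edgeR, adjusted p = 0.836), and on log2 of RPKM plus 1 the difference was 0.02 (limma, adjusted p = 0.933). It was called by edgeR with TMM or RLE factors and by DESeq2, and not with library totals or by limma. RefSeq lists pseudogenes of Slc7a13 (Slc7a13-ps1 and Slc7a13-ps2) and Slc3a2 (Slc3a2-ps1), and how reads were split between copies is not known.

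In that comparison 11225 of 22313 genes passed an adjusted p of 0.05 (50.3%), 22.2% of all as higher in S1 tubules; with library totals 90.3% passed, 6.53% of all as higher. The median over the 10 transporters was 6.06 (4.29 with library totals), and 4.54 (range 1.79 to 5.69) with the left-out libraries numbered 2 included. Of 28 other amino acid transporters, a list that includes those of dividing and non-epithelial cells, 8 were higher in sham S1 tubules, 10 were lower and 10 did not pass, with a median of -0.98; with library totals 5 were higher and 20 lower. The higher ones included Slc6a13, a GABA and betaine carrier (5.4 ± 0.25), Slc43a2, a neutral amino acid facilitator (5.32 ± 0.27), and Slc16a10, a basolateral carrier of aromatic amino acids (4.51 ± 0.25). Slc38a7, a lysosomal glutamine carrier, was also higher (2.81 ± 0.16). Of 15 measured partner proteins, peptidases and peptide carriers of the brush border, 10 were higher and 4 lower, with a median of 3.57, and with library totals 9 were higher and 5 lower. Tmem27, the chaperone that brings Slc6a19 to the renal brush border, was higher by 8.64 ± 0.41, the aminopeptidase Anpep by 7.3 ± 0.33, the scaffold Pdzk1 by 5.77 ± 0.2, the peptide carrier Slc15a1 by 4.75 ± 0.22 and the protease Mep1a by 6.4 ± 0.3.

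**Figure D1:**
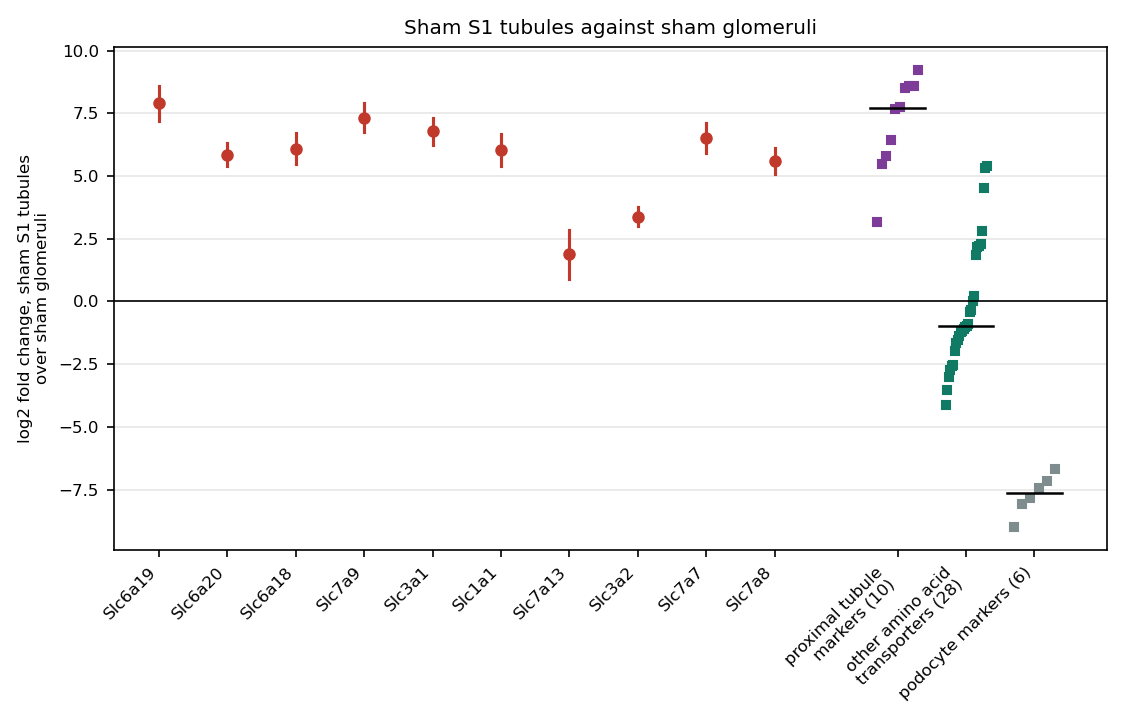
Log2 fold change (TMM scaling) of sham S1 tubules over sham glomeruli for each transporter (circles, with 95% confidence intervals) and for the genes of 3 lists (squares, with the median as a line and the number of genes in brackets). All 10 transporters lie above 0, from 1.88 for Slc7a13 to 7.89 for Slc6a19, while the 28 other amino acid transporters lie on both sides of 0.

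Levels per length could be ordered within a library. Over the 11 sham S1 libraries the mean order was Slc3a1, Slc7a7, Slc7a8, Slc3a2, Slc6a19, Slc7a9, Slc1a1, Slc6a18, Slc6a20 and Slc7a13. Of the 9 neighbouring pairs, 4 differed beyond their spread in a two-sided exact permutation test on log2 RPKM, with p adjusted over the 9 pairs. These were Slc3a2 above Slc6a19 (adjusted p = 0.00879, higher in 10 of 11 libraries), Slc6a19 above Slc7a9 (0.0198, 10 of 11), Slc1a1 above Slc6a18 (0.00439, 11 of 11) and Slc6a20 above Slc7a13 (0.00439, 11 of 11). The other 5 neighbouring pairs, among them Slc3a1 with Slc7a7 (adjusted p = 0.476) and Slc7a9 with Slc1a1 (0.266), did not differ beyond their spread.

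Whole kidney, which also holds the later proximal tubule, gave another order. Over the 12 sham libraries it ran Slc3a1, Slc7a13, Slc6a18, Slc1a1, Slc3a2, Slc7a9, Slc7a7, Slc6a19, Slc7a8 and Slc6a20. There 5 of 9 neighbouring pairs differed in the same exact permutation test: Slc3a1 above Slc7a13, Slc7a13 above Slc6a18, Slc6a18 above Slc1a1 and Slc7a7 above Slc6a19 (adjusted p = 0.0011 each, higher in 12 of 12 libraries), and Slc3a2 above Slc7a9 (0.00352, 11 of 12). Slc1a1 with Slc3a2, Slc7a9 with Slc7a7, Slc6a19 with Slc7a8 and Slc7a8 with Slc6a20 did not. Over the sham libraries of 48 and 72 h alone the order was the same and 8 of the 9 pairs differed.

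Slc7a13 changed place most. It was the lowest of the 10 transporters in 22 of 23 S1 libraries and the highest or second highest in 24 of 24 whole kidney libraries. In whole kidney it ranged from 493 to 876 FPKM (fragments per kilobase, scaled to library depth; median 760.0) over 12 nephrectomy libraries and from 461 to 898 FPKM (median 769) over 12 sham libraries. The ranges overlapped almost entirely. Whole kidney and segment libraries were prepared with different kits and normalised in separate tables, so tissue and preparation cannot be told apart in these levels.

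Ratios within a library do not depend on its scaling. The kits still differed, so tissue and preparation cannot be told apart in the ratios between segments and whole kidney either. The median ratio of Slc7a13 to its heavy chain Slc3a1 was 0.00397 in S1 tubules (range 0.000665 to 0.0516 over 23 libraries) and 0.928 in whole kidney (0.639 to 1.16 over 24 libraries). The median ratio of the other light chain, Slc7a9, to Slc3a1 was 0.299 in S1 tubules (0.175 to 0.532) and 0.0344 in whole kidney (0.0127 to 0.0858). The ranges of the tissues did not overlap for either ratio, and the light chains stood in opposite order.

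The neighbouring genes showed the same kind of exchange, with the same limit. Slc6a19 was above Slc6a18 in 23 of 23 S1 libraries, with a median ratio of 6.35 (2.85 to 28.1). It was below Slc6a18 in 24 of 24 whole kidney libraries, with a median ratio of 0.104 and none above 0.422. On the basolateral side, the median ratio of Slc7a7 to Slc3a2 was 1.72 in S1 tubules, 0.201 in glomeruli and 0.607 in whole kidney, and that of Slc7a8 to Slc3a2 was 1.28, 0.218 and 0.315. The heavy chain was above each partner in 23 of 23 glomerulus libraries.

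**Figure D2:**
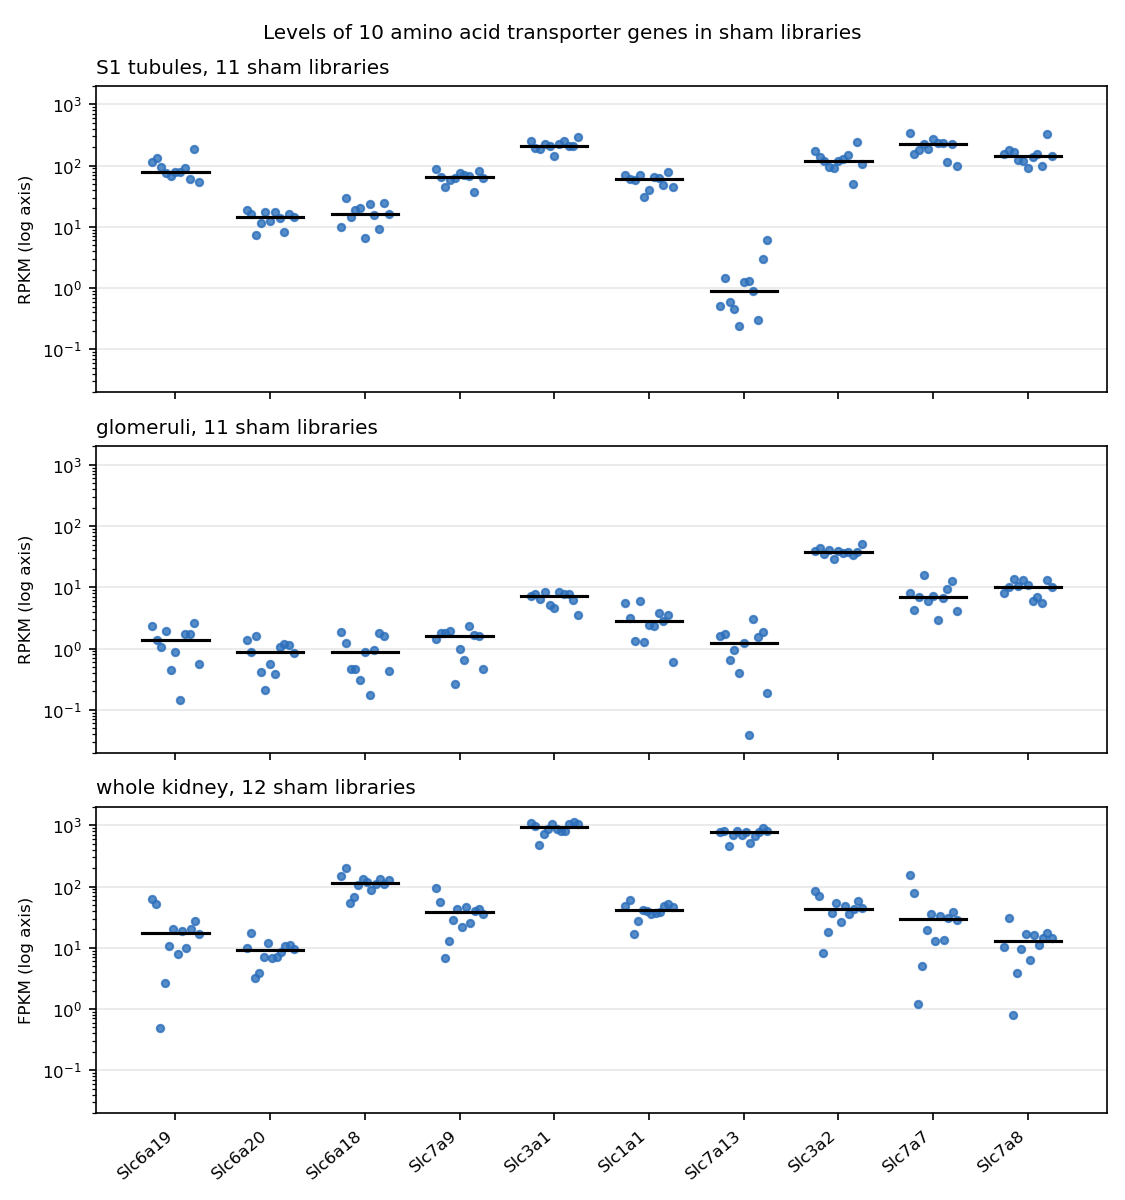
Level of each transporter in every sham library, as RPKM in S1 tubules and glomeruli (11 libraries each) and FPKM in whole kidney (12 libraries), on log axes; points are libraries and lines are medians. Slc7a13 is lowest in S1 tubules, with a median of 0.889 RPKM, and second highest in whole kidney, and Slc3a2 is highest in glomeruli, with a median of 37.4 RPKM.

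Group profiles over the 12 segment groups and 6 whole kidney groups were compared with those of 7181 genes of at least 5 CPM in both S1 tubules and whole kidney. The likeness was the root mean square difference of centred log2 levels, where 0 is an identical pattern within each table. The segment and whole kidney tables were each centred on their own. A gene's difference in level between segments and whole kidney, such as that of Slc7a13, therefore did not enter. The difference between S1 tubules and glomeruli did enter. As the closest of 7181 genes was picked, a value below the median was fixed in advance and describes the match only. Slc3a2 was most like Hagh (0.12, against a median of 1.17 over all genes compared), Slc1a1 like Eps8 (0.2, median 2.24), Slc6a18 like Erich4 (0.21, median 2.32) and Slc3a1 like Pter (0.22, median 2.53). Slc7a8 was most like Bnc2 (0.24), Slc6a20 like Bdh2 (0.25), Slc7a9 like Hykk (0.26), Slc7a7 like Slc22a23 (0.29) and Slc6a19 like the secreted peroxidase Gpx3 (0.31). Slc7a13 had the least close match, Cecr2, at 0.41 against a median of 0.89.

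Nephrectomy was then set against sham in each tissue. In S1 tubules none of the 10 transporters passed an adjusted p of 0.05 at 24, 48 or 72 h, in the mean of the 3 times or in the difference between times, by edgeR or DESeq2, and none had an unadjusted edgeR p below 0.05. Over all 18372 genes edgeR called 0 at each time and in the mean (0%) and 0.0109% between times. DESeq2 called 0.0169% of genes at 24 h, 0.0562% at 48 h, 4.54% at 72 h, 0.0367% in the mean and 0.0489% between times. In such bulk samples fewer cells of a type and less RNA per cell cannot be told apart. In the mean of the 3 times the fold changes ran from -0.27 to 0.02 on the log2 scale, with a median of -0.09 over the 10 transporters and 0.03 over all genes; with the left-out sham 24 h library included they ran from -0.3 to 0.16, with a median of 0.05. The 95% intervals were narrowest for Slc7a9 (-0.4 to 0.22) and widest for Slc7a13 (-1.25 to 0.71).

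Slc6a19 in S1 tubules had 17.4 to 138 RPKM (median 87.7) over 12 nephrectomy libraries and 53.1 to 184 RPKM (median 78.5) over 11 sham libraries. Slc7a7 had 22.4 to 374 RPKM (median 200.0) in nephrectomy and 99.5 to 340 RPKM (median 225) in sham libraries. Slc3a1 had 137 to 369 RPKM (median 202) in nephrectomy and 145 to 297 RPKM (median 211) in sham libraries. In each case the groups overlapped, and the lowest Slc6a19 and Slc7a7 values were both in the nephrectomy 72 h library numbered 2. Without that library the mean log2 fold change was 0.06 for Slc6a19, 0.04 for Slc7a7 and 0.05 for Slc3a2, against -0.05, -0.08 and -0.06 with it.

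At 48 h, on TMM-scaled counts, Slc3a2 and Slc7a8 had every S1 nephrectomy library above every sham library. Slc3a2 had 264 to 346 CPM (counts relative to the TMM-scaled library total) in 4 nephrectomy libraries and 189 to 251 CPM in 4 sham libraries, a log2 fold change of 0.44 ± 0.36, while in RPKM its groups overlapped, at 121 to 184 in nephrectomy and 91.8 to 127 in sham libraries. Slc7a8 had 606 to 684 CPM in nephrectomy and 374 to 535 CPM in sham libraries, a log2 fold change of 0.42 ± 0.34. Of all genes 2.92% were separated in that direction (5.73% in either), and neither transporter passed the test (edgeR, adjusted p = 1 for both). At 24 and 72 h no transporter in S1 tubules was separated in this way, where 3.39% and 1.16% of all genes were.

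In glomeruli the transporters were low and none passed the test at any time, in the mean or between times, by edgeR or DESeq2, with none at an unadjusted edgeR p below 0.05; 0 of 22405 genes (0%) passed edgeR's test at each time and in the mean, and 0.00446% between times. DESeq2 called 0.00897% of genes at 24 h and at 48 h, 0.00448% at 72 h, 0.0135% in the mean and 0.0359% between times. Their mean log2 fold changes ran from -0.47 to 0.39, with a median of 0.18 against 0 over all genes. With the left-out sham 24 h library included, the 24 h fold changes ran from -6.59 to -0.5 with a median of -4.65, against -0.56 to 0.62 with a median of -0.01 without it. No transporter passed the test that its nephrectomy effect differed between S1 tubules and glomeruli (edgeR and DESeq2, 0 of 10; 0 at an unadjusted edgeR p below 0.05; 0 of 24488 genes by edgeR, 0%). The differences, S1 tubules minus glomeruli, ran from -0.7 to 0.33 on the log2 scale with a median of -0.3, and had a median of 1.47 with the left-out libraries numbered 2 included.

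In whole kidney at 24 h, 4 transporters had nephrectomy fold changes below -1 on the log2 scale, and none of them passed the test. Slc6a19 had 4.66, 4.95, 1.02 and 0.378 FPKM in nephrectomy libraries 1 to 4, against 62.5, 51.2, 0.492 and 2.66 FPKM in sham libraries 1 to 4. Slc7a7 had 7.97, 8.63, 1.845 and 1.37 FPKM in nephrectomy libraries, against 156, 77.7, 1.19 and 5.09 FPKM in sham libraries. For both genes libraries 3 and 4 of both surgeries were low and sham libraries 1 and 2 were the highest of all 24 whole kidney libraries, so the groups overlapped. Slc7a9 had 14.5, 14.05, 6.76 and 7.2 FPKM in nephrectomy libraries, against 93.4, 56.9, 6.775 and 12.9 FPKM in sham libraries, the same pattern on a smaller scale.

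The 24 h log2 fold changes were -2.95 ± 0.73 for Slc7a7 (edgeR, adjusted p = 0.0767), -2.74 ± 0.75 for Slc6a19 (0.106), -1.46 ± 0.34 for Slc7a9 (0.0575) and -1.28 ± 0.52 for Slc7a8 (0.312). Of the 10 transporters 0 passed an adjusted p of 0.05 and 5 had an unadjusted edgeR p below 0.05; over all 15678 genes 37 passed (0.236%). DESeq2 called 3 of the 10, Slc6a19, Slc7a9 and Slc7a7, all lower, and 2.13% of all genes, 1.54% of all as lower.

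The carriers that are high in whole kidney had fold changes nearer 0 at 24 h. Slc7a13 had 757, 872, 540.1 and 660 FPKM in nephrectomy libraries 1 to 4, against 788, 822, 461 and 704 FPKM in sham libraries 1 to 4, and a log2 fold change of 0.14 ± 0.24. Slc3a1 had 679, 752, 475 and 567 FPKM in nephrectomy libraries, against 1089, 986, 483 and 724 FPKM in sham libraries, and a log2 fold change of -0.23 ± 0.19. The log2 fold change of Slc6a18 was 0.12 ± 0.13, and -0.23 with library totals in place of TMM, which moved the median of all genes to -0.32, against -0.02 with TMM. For these 3 genes the groups overlapped, and the library numbered 3 was the lowest of its surgery for Slc3a1 and Slc7a13.

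The 24 h libraries numbered 3 and 4 differed from the other 20 whole kidney libraries in these genes, whichever the surgery. Slc6a19 ranged from 0.378 to 2.66 FPKM in the 4 libraries and from 4.66 to 62.5 in the other 20, Slc7a7 from 1.19 to 5.09 and from 7.97 to 156, and Slc7a8 from 0.576 to 3.81 and from 5.38 to 31.1, with no overlap. Slc7a9 (6.76 to 12.9 and 14.1 to 93.4) and Slc1a1 (16.7 to 27.5 and 28.3 to 61.0) did not overlap either. TMM factors, which FPKM leave out, were 0.452 to 0.685 in the 4 libraries and 0.835 to 1.57 in the others. The share of all genes separated in this way is not given here, so these ranges are no result about the transporters in particular. The ranges overlapped for Slc7a13, with 461 to 704 and 493 to 898 FPKM. On TMM-scaled counts Slc6a19 and Slc7a7 again did not overlap. Slc7a8 did, with 3.75 to 26.0 CPM in the 4 libraries and 24.9 to 79.1 CPM in the others, and so did Slc7a9 and Slc1a1. On that scale Slc3a1 had 1620 to 2880 CPM in the 4 libraries and 1030 to 2320 CPM in the others, so that it was not lower there. The mean level of 6 podocyte markers was also low in 3 of these libraries, at 1.9, 2.4 and 2.68 log2 CPM, and 4.44 in the sham library numbered 4; its part in the result was not tested.

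Within the 24 h libraries numbered 1 and 2 alone, together with all libraries of 48 and 72 h, 6 of the 10 transporters were lower after nephrectomy at 24 h by edgeR. These were Slc7a7 (-3.24 ± 0.48, adjusted p = 0.000873), Slc6a19 (-2.94 ± 0.4, 0.000733), Slc7a9 (-1.8 ± 0.31, 0.00155), Slc7a8 (-1.19 ± 0.32, 0.0187), Slc3a2 (-1.04 ± 0.24, 0.00805) and Slc6a20 (-0.6 ± 0.19, 0.035). This rests on 2 nephrectomy and 2 sham libraries, and 2645 of 16122 genes passed in the same fit (16.4%), 10.2% of all as lower. Libraries 3 and 4 were set apart on the levels of transporters called here, so these calls cannot decide whether nephrectomy lowered them. Slc7a13 (0.67 ± 0.29, adjusted p = 0.119), Slc6a18 (0.09 ± 0.18) and Slc3a1 (0.1 ± 0.23) did not pass. Libraries 3 and 4 gave no single order. Slc6a19 was higher after nephrectomy in number 3 (1.02 against 0.492 FPKM) and lower in number 4 (0.378 against 2.66 FPKM). Slc7a9 was lower after nephrectomy in both numbers, though by little in number 3 (6.76 against 6.78 FPKM). On TMM-scaled counts both nephrectomy values of Slc7a9 lay below its sham values, 25.5 and 37.5 CPM. The labels do not say that libraries of 1 number are pairs.

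**Figure D3:**
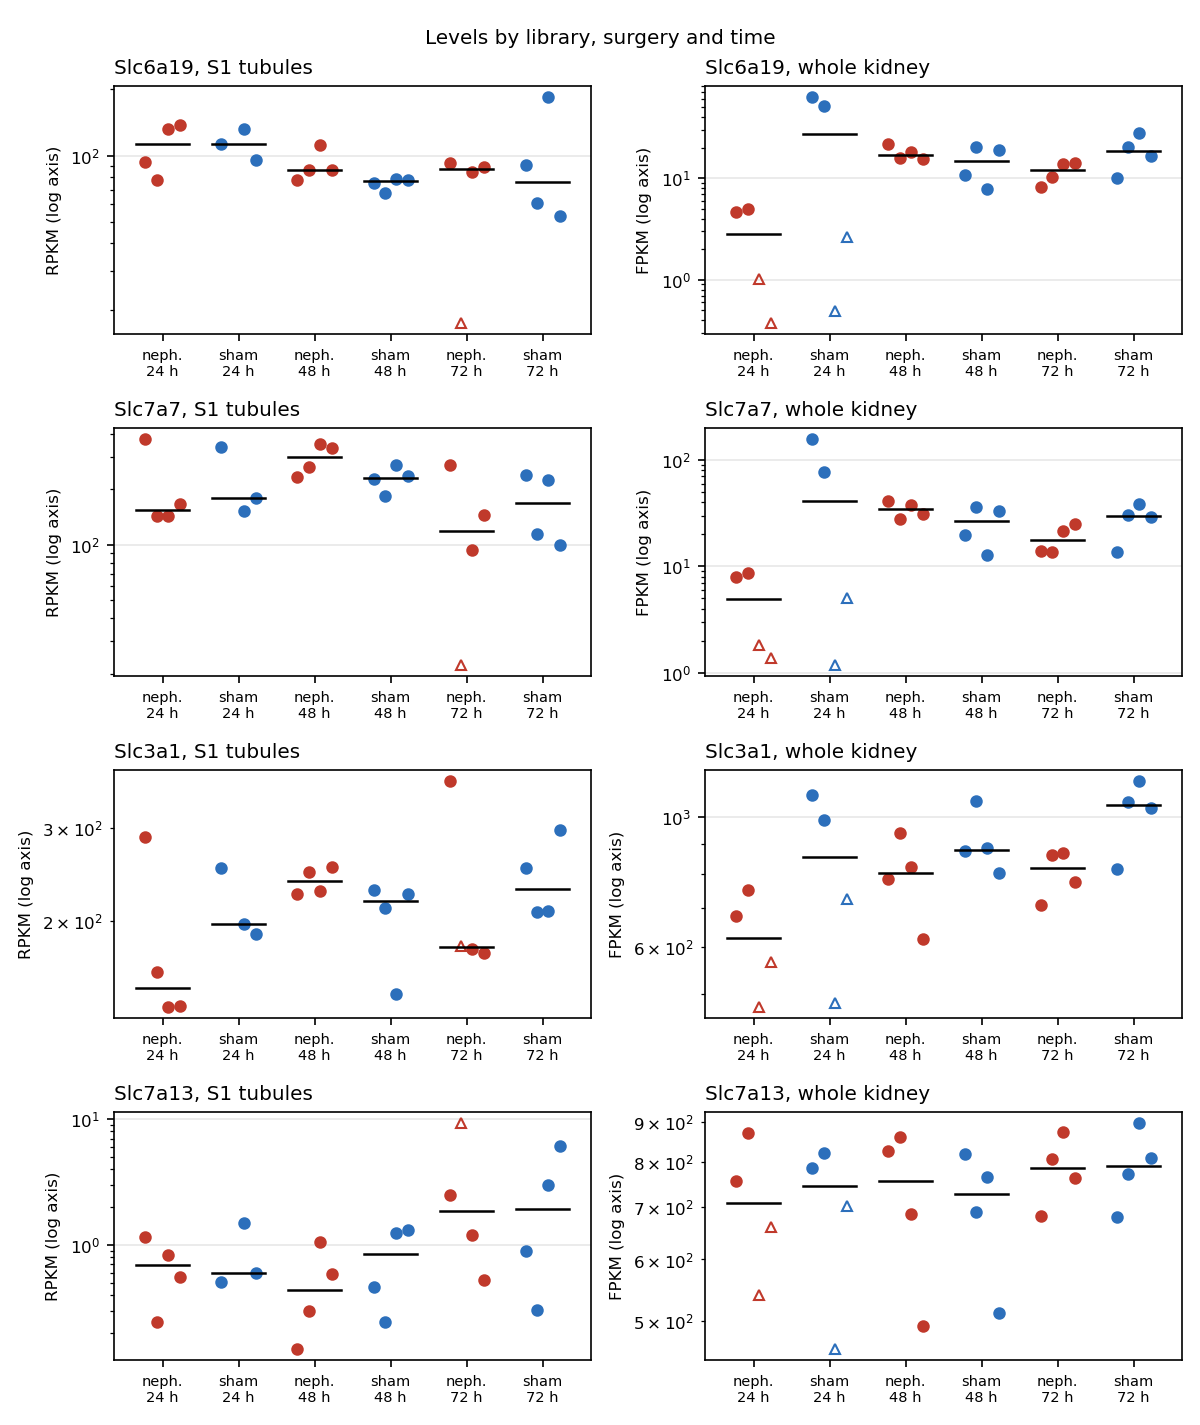
Levels of Slc6a19, Slc7a7, Slc3a1 and Slc7a13 in every library of S1 tubules (left, RPKM) and whole kidney (right, FPKM) on log axes, nephrectomy in red left of sham in blue at 24, 48 and 72 h; lines are medians. Open triangles mark the whole kidney 24 h libraries numbered 3 and 4 and the S1 nephrectomy 72 h library numbered 2: in whole kidney, Slc6a19 lies between 0.378 and 2.66 FPKM in the 4 marked libraries and between 4.66 and 62.5 in the others.

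At 48 and 72 h the whole kidney values were close together. Slc6a19 averaged 17.8 ± 2.94 FPKM in nephrectomy and 14.4 ± 6.03 FPKM in sham kidneys at 48 h (SD, n = 4 each), and 11.6 ± 2.89 and 18.7 ± 7.46 FPKM in nephrectomy and sham kidneys at 72 h. Slc7a7 averaged 34.5 ± 6.15 FPKM in nephrectomy and 25.4 ± 10.9 FPKM in sham kidneys at 48 h, and 18.5 ± 5.75 and 27.9 ± 10.5 FPKM in nephrectomy and sham kidneys at 72 h. The order of the surgeries turned between the times for both genes, within overlapping libraries. Over all 24 whole kidney libraries the highest Slc6a19 value was 165-fold the lowest, and over the 16 libraries of 48 and 72 h 3.53-fold; for Slc7a13 these ratios were 1.95 and 1.82.

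Slc3a1, the highest of the 10 per length in sham kidneys, had 783, 939, 821 and 619 FPKM in nephrectomy kidneys at 48 h, against 873, 1063, 883.5 and 802 FPKM in sham kidneys. At 72 h it had 708, 859.6, 868.5 and 775 FPKM in nephrectomy kidneys, against 816.5, 1058, 1149 and 1035 FPKM in sham kidneys. Nephrectomy libraries were mostly lower and overlapped sham libraries at both times. In the mean of 48 and 72 h its log2 fold change was -0.36 ± 0.14, the largest in size of all the transporters (edgeR, adjusted p = 0.275), followed by Slc7a9 (-0.29 ± 0.23), Slc6a19 (-0.27 ± 0.49) and Slc1a1 (-0.24 ± 0.1, adjusted p = 0.301). None of the 10 passed in that mean (edgeR and DESeq2; 2, Slc3a1 and Slc1a1, at an unadjusted edgeR p below 0.05), where 154 of 15678 genes did by edgeR (0.982%) and 2.41% by DESeq2. The values ran from -0.36 to 0.02 with a median of -0.21, against 0.01 over all genes.

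At 48 h alone 0 of the 10 passed in whole kidney (0% of all genes) and at 72 h 0 of the 10 (0.00638% of all genes), by edgeR. DESeq2 also called 0, along with 1.06% of all genes at 48 h and 0.0686% at 72 h, and 1 transporter had an unadjusted edgeR p below 0.05 at each time. At 72 h Slc6a20, the proline carrier, had 12.1 to 16.8 CPM in nephrectomy and 16.9 to 19.1 CPM in sham kidneys, and Slc1a1 had 118 to 135 CPM in nephrectomy and 137 to 158 CPM in sham kidneys. On this scale every nephrectomy library was below every sham library for these genes, as for 5.43% of all genes (10.8% in either direction). In FPKM the groups of both genes overlapped, at 5.77 to 8.91 in nephrectomy and 8.52 to 11.1 in sham kidneys for Slc6a20, and 33.6 to 42.6 in nephrectomy and 38.7 to 51.7 in sham kidneys for Slc1a1. Their log2 fold changes at 72 h were -0.38 ± 0.15 and -0.22 ± 0.14, and neither passed (edgeR, adjusted p = 0.824 and 1). No other transporter was separated in whole kidney, where 3.31% of all genes were at 24 h and 7.23% at 48 h.

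Averaged over the 3 times, 9 of the 10 transporters had log2 fold changes below 0 in whole kidney and none passed an adjusted p of 0.05 by edgeR, though 6 had an unadjusted p below 0.05 and DESeq2 called 3 (Slc7a9, Slc3a1 and Slc1a1; 5.87% of all genes, 2.91% of all as lower). Over all genes 448 of 15678 passed by edgeR (2.86%), 1.17% of all as lower. Slc7a9 came closest to the threshold, at -0.68 ± 0.19 (edgeR, adjusted p = 0.0515), then Slc1a1 at -0.26 ± 0.08 (0.0781). Slc6a19 (-1.09 ± 0.41) and Slc7a7 (-1.08 ± 0.4) had larger values and wider errors, and Slc6a18 (0.05 ± 0.07) and Slc7a13 (-0.01 ± 0.14) lay near 0. The median of the 10 was -0.3 and that of all genes -0.01. Without the 24 h libraries numbered 3 and 4, edgeR called 5 of the 10 as lower in this mean, Slc6a19, Slc6a20, Slc7a9, Slc3a2 and Slc7a7, where 4.87% of all genes passed, 2.85% of all as lower. The same limit holds, as these libraries were set apart on the transporters' own levels.

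**Figure D4:**
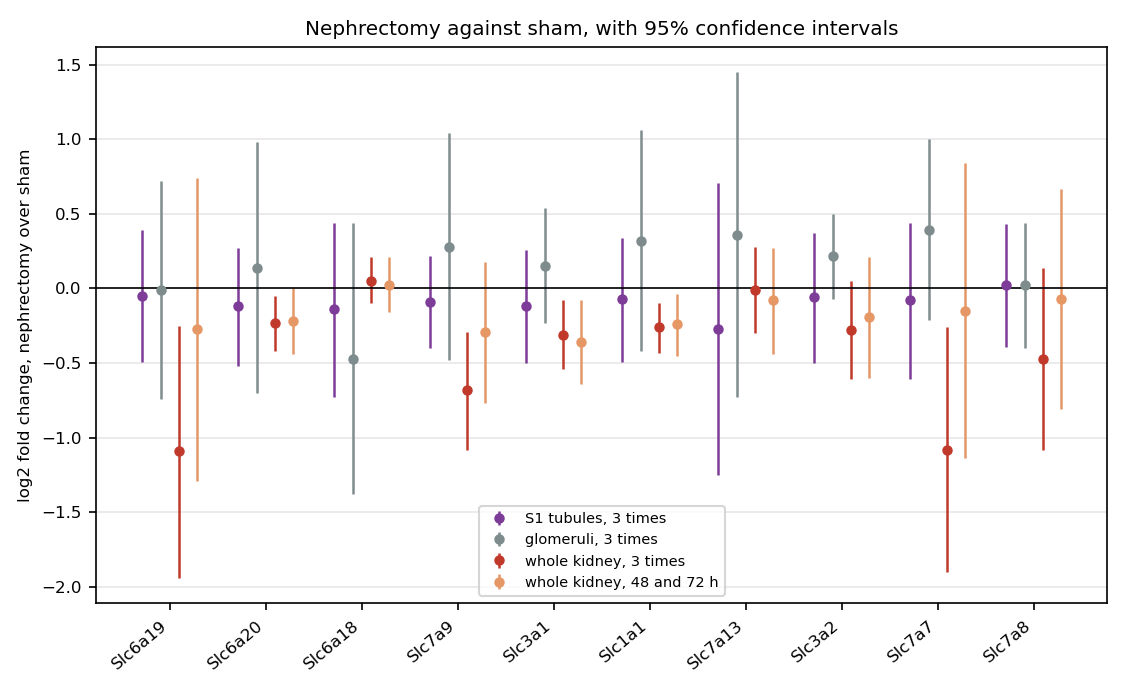
Log2 fold change of nephrectomy over sham for each transporter, with 95% confidence intervals, as the mean of 24, 48 and 72 h in S1 tubules, glomeruli and whole kidney, and as the mean of 48 and 72 h in whole kidney. The 3-time means of Slc6a19 and Slc7a7 in whole kidney, -1.09 and -1.08, lie farthest below 0, and their 48 and 72 h means are -0.27 and -0.15.

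Whether the whole kidney effect differed between the times was tested directly. No transporter passed by edgeR or DESeq2, where 3 of 15678 genes (0.0191%) passed by edgeR and 0.326% by DESeq2. The smallest edgeR adjusted p was 0.69, for Slc7a7, and 3 transporters had an unadjusted edgeR p below 0.05. Without the 24 h libraries numbered 3 and 4, Slc6a19, Slc7a9 and Slc7a7 passed, as did 1830 of 16122 genes (11.4%). As those libraries were set apart on levels of these genes, this cannot decide whether the nephrectomy effect differed between times. Removing either sham 24 h library numbered 3 or 4 alone made the same 3 transporters pass at 24 h (Slc6a19, Slc7a9 and Slc7a7). Removing sham library 2 made Slc7a9 pass. Over all genes 364 passed without sham library 3, 137 without 4 and 171 without 2, against 37 with all libraries.

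Related genes were counted in the same whole kidney fit. Over the 3 times, 2 of 15 partner proteins and peptidases were lower after nephrectomy and none higher: the Slc6a19 chaperone Tmem27 (-0.73 ± 0.15, edgeR adjusted p = 0.0149) and the brush border scaffold Pdzk1 (-0.49 ± 0.11, 0.0216). In this mean 1.17% of all genes were called lower and 1.69% higher. Of 10 proximal tubule markers 1 was lower, Miox, the enzyme that opens the ring of inositol (-0.68 ± 0.11, 0.00624), with a median of -0.4 over the list. Of 24 measured other amino acid transporters none passed (edgeR, median 0.08), and none of 6 podocyte markers passed (median 0). Of 5 collecting duct markers 1 was higher, the vasopressin receptor Avpr2 (0.47 ± 0.1, 0.0141). At 48 and 72 h, where 0.0829% of all genes were called lower, Miox was again lower (-0.68 ± 0.13, edgeR adjusted p = 0.027) and no gene of the partner list passed. In S1 tubules no gene of these lists passed in the mean of the 3 times.

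Together the 10 transporters took 0.0988 to 0.346% of all gene counts in 12 nephrectomy S1 libraries (median 0.252%) and 0.17 to 0.394% in 11 sham S1 libraries (median 0.237%). In whole kidney they took 0.259 to 0.475% (median 0.406%) in 12 nephrectomy and 0.23 to 0.559% (median 0.456%) in 12 sham libraries. The groups overlapped in both tissues.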

How the data were processed

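Gene counts (whole reads per gene), RPKM for the segments and FPKM for whole kidney were used as deposited by the authors. Per the submitters' processing notes, the tools were HTSeq, SAMtools, STAR 2.4.0.1 and Trimmomatic 0.32; the sources used here give no genome build, annotation or strand setting. Per the labels' protocols, segment RNA was amplified (NuGen Ovation) and sequenced single-end, and whole kidney RNA (TruSeq Stranded, 2 kit formats not tied to samples) paired-end. The 5 HTSeq summary entries were left out.

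Each tissue was fitted as 6 groups with edgeR 4.0.16 (TMM factors, filterByExpr with a minimum count of 10, quasi-likelihood F test; R 4.3.3), with p-values adjusted by Benjamini-Hochberg over all genes; the sham segments were fitted together. All 10 transporters passed the filter in every fit. Levels compared between genes are RPKM or FPKM, which use 1 length per gene in both tables. Orders were tested by two-sided exact sign-flip permutation within libraries. Alternatives were DESeq2 1.42.0, limma 3.58.1 on log2 of RPKM or FPKM plus 1 or 0.1, other scalings, no filter, a replicate block, and libraries left out. For nephrectomy a block within each time, and between the segments library totals and limma with 0.1, were added after the data were seen. The fits were run on simulated data, with outcomes not given here, so the size of change they could find is not stated. The common coefficient of variation between libraries in edgeR was 0.713 in S1 tubules, 0.625 in glomeruli and 0.248 in whole kidney. The genes, lists and tests were chosen with earlier results of these data known. Named genes of other lists are up to 4 per list and comparison with the smallest p among those that passed, plus Tmem27; 1 other gene that the rule names is not reported here. Each SE of an edgeR fold change was back-calculated as the size of the log2 fold change over the square root of F. The 95% intervals used that SE and the t distribution, so both are approximate, above all for the large differences between segments. Intervals cover the spread between libraries.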

Additional observations from a re-analysis of the deposited data

Results flagged for a closer look

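Within groups of 4 libraries, 11 of 160 combinations of transporter and group had 1 library far from the others; chance alone gives about 1 in 20. In S1 tubules after nephrectomy, the 72 h library numbered 2 was low for Slc6a19 (67.4 CPM, against 337 to 454 in the others), Slc3a2 (40.4, against 202 to 280.0) and Slc7a8 (150, against 653 to 729). Also in S1 tubules after nephrectomy, the 24 h library numbered 1 was high for Slc7a9 (126 CPM) and Slc3a2 (318), the 24 h library numbered 3 low for Slc1a1 (120, against 215 to 229) and the 48 h library numbered 3 high for Slc7a9 (160, against 106 to 112). In sham S1 tubules, the 48 h library numbered 3 was low for Slc6a18 (15.8 CPM, against 46.6 to 53.1) and the 72 h library numbered 2 high for Slc1a1 (318, against 204 to 220). In glomeruli after nephrectomy, the 24 h library numbered 2 was high for Slc6a20 (3.76 CPM) and the 72 h library numbered 3 high for Slc7a13 (20.5, against 1.66 to 2.28). This 72 h library had the fewest gene counts of all libraries, 2643258, with 2.92% of its uniquely mapped reads in genes.

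In the sham 24 h glomerulus library numbered 2, which was left out, 9 of 10 transporters were above all other 23 glomerulus libraries; Slc6a19 had 124 RPKM and Slc7a13, the exception, 0.553 RPKM. In the sham 24 h S1 library of the same number, 8 of 10 were below all other 23 S1 libraries, with 6.84 RPKM of Slc6a19. The share of all genes beyond the other libraries is not given, so both counts describe the libraries and not the transporters in particular.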

How the results depend on the processing

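Of the 10 transporters 9 stayed higher in sham S1 tubules than in sham glomeruli, and were called, under every alternative run. The fold change of Slc7a13 kept its sign but fell to within its error with library totals (0.12 ± 0.54 on the log2 scale). Slc7a13 was not called there or with limma on RPKM plus 1 or 0.1. The number called for nephrectomy was 0 in S1 tubules and glomeruli under every alternative, and moved only in whole kidney. At 24 h it was 3 with DESeq2, 1 with no filter, 3 with a block of numbers within each time and 6 without the 24 h libraries numbered 3 and 4, and 0 to 3 with each library left out; in the mean of 3 times it was 3, 1, 1 and 5, and 0 to 3. There, leaving out sham 24 h library 2 or 3 gave 3, nephrectomy 48 h library 1 gave 2, and sham 24 h library 4, sham 48 h library 3 or sham 72 h library 1 gave 1 each (Slc7a9). Over all genes these fits called 1067 and 621, then 568, then 337, 507 and 420, against 448 with all libraries. In the same mean 379 of all genes passed with no filter and 450 with the block within each time. The difference between times called 3 without libraries 3 and 4, against 0 with them. Libraries 3 and 4 were set apart on the transporters' own levels, so the counts without them are no separate support for an effect. Neighbouring pairs that differed in sham kidney numbered 8 over 48 and 72 h, against 5 over all times. The cause of these moves was not tested.

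Counts over all genes moved too: in whole kidney, DESeq2 called 307 at 24 h, 166 at 48 h, 7 at 72 h, 865 in the mean, 378 over 48 and 72 h and 51 between times, against 37, 0, 1, 448, 154 and 3 by edgeR, and 759 at 72 h in S1 tubules, against 0. Library totals called 0 at 24 h and 121 in the mean, limma at most 1 in whole kidney, no filter 56 at 24 h, and the 72 h libraries alone 281. Without libraries 3 and 4, 370 passed over 48 and 72 h. Between the sham segments 20159 passed with library totals and 20553 or 20319 with limma, against 11225.

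Several fold changes near 0 turned sign, all without a call. In S1 tubules, including the left-out sham library gave 0.09 for Slc6a19, 0.04 for Slc7a9, 0.02 for Slc3a1, 0.07 for Slc1a1, 0.06 for Slc3a2 and 0.06 for Slc7a7, and limma gave -0.02 for Slc7a8. In whole kidney at 24 h, Slc6a18 was -0.23 with library totals and -0.06 with limma, and Slc3a1 0.1 without libraries 3 and 4. Slc7a13 in the 3-time mean was 0.02 with library totals or limma and 0.17 without libraries 3 and 4; over 48 and 72 h it was 0.01 with library totals or limma, and Slc7a8 0.02 and 0.06. Library totals moved the median of all genes over 48 and 72 h to 0.11, against 0.01 with TMM. With each library left out, S1 values ran from -0.14 to 0.06 for Slc6a19, -0.31 to 0.03 for Slc6a18, -0.2 to 0.01 for Slc1a1, -0.65 to 0.16 for Slc7a13, -0.15 to 0.05 for Slc3a2, -0.25 to 0.05 for Slc7a7 and -0.03 to 0.13 for Slc7a8. In whole kidney Slc7a13 ran from -0.04 to 0.35 at 24 h, -0.07 to 0.06 in the mean and -0.15 to 0 over 48 and 72 h, Slc6a18 from -0.02 to 0.08 and Slc7a8 from -0.16 to 0.03 over 48 and 72 h.

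The replicate numbers did not pair the samples throughout: deviations correlated above 0.1 in 2 of 11 pairs in glomeruli, 5 of 11 in S1 tubules, 6 of 12 in whole kidney and 13 of 23 between the segments, and in all 4 pairs of whole kidney at 72 h (r from 0.12 to 0.295). A replicate block shared by the 3 times left the number of transporters called at 0 in every nephrectomy comparison. Over all genes this shared block called 18 at 24 h in whole kidney, against 37. Between the sham segments the block was of numbers within each time, and the number of transporters called stayed at 10. With the block shared by the 3 times Slc7a13 was 0.01 in S1 tubules and 0 in the whole kidney mean. A replicate block within each time, added after the data were seen, called 3 transporters at 24 h in whole kidney (Slc6a19 at -2.29 ± 0.47, edgeR adjusted p = 0.0398, Slc7a9 and Slc7a7; 124 of all genes) and 1 in the mean (Slc7a9, -0.59 ± 0.14, 0.0359), and 0 at 72 h; it gave -0.09 for Slc7a8 in S1 tubules and 0.01 for Slc7a13 in the whole kidney mean.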
